A study of Arabidopsis thaliana with 4 samples.

Results

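Among 8247 probe sets on an Arabidopsis leaf array, 122 had a signal on the potassium-free array at least 2 times that on each of the other 3 arrays, and 105 of these are described here. They were chosen by the signals themselves: signals under 25 were set to 25, and the potassium-free signal had to reach 2 times the phosphate-free, the nitrate-free and the full-solution signal. Another 17 probe sets past the limit, of osmotin, chitinase, glucanase, peroxidase, beta-glucosidase, acetylation and other named genes, were left out by name. Names could be applied only where the annotation gave a gene, and peroxidase genes were listed by hand, so members with no gene named may include transcripts of the genes meant to be left out. The 122 probe sets at 2 times each other array are 1.48% of all 8247. That share describes the choice and is not a finding about the members.

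RNA came from Arabidopsis thaliana rosettes of the Col-5 ecotype (leaf tissue), with no mutant or transgene named in the labels. Plants were moved to hydroponics at day 21 and harvested 28 h after the solution was changed. The potassium-free solution left out KH2PO4 and KOH and held 0.27 mM extra Ca(H2PO4)2. The phosphate-free solution left out KH2PO4 and held 0.125 mM extra K2SO4. The sample's title and source name differ in their letters for the nutrients, and its group rests on the source name and the stated recipe. The nitrate-free solution left out calcium nitrate and held 4 mM extra CaSO4. The full solution held 0.25 mM KH2PO4 and 0.5 mM KOH, and the labels list no nitrate salt for it. All plants stood in constant light at 24 °C and 80% humidity after the move. KH2PO4 was absent from both the potassium-free and the phosphate-free solution, and the number of plants behind each array is not given in the sources used here. With 1 array for each solution, the signals carry no replicate error, no difference could be tested, and the number of arrays limits the precision.

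Potassium is the main cation of plant cells, where it sets osmotic pressure, drives stomatal movement and activates many enzymes. Leaves of potassium-starved Arabidopsis are known for raised jasmonate-responsive and defence transcripts. Berberine bridge enzyme-like oxidases, some of which oxidise sugars or cell wall fragments, and jacalin-related lectins, which bind sugars, are families found among the members. Jacalin-related lectins and GDSL lipase-like proteins also form complexes with beta-glucosidases of the ER body, a storage compartment of the endoplasmic reticulum in the cabbage family.

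**Figure D1:**
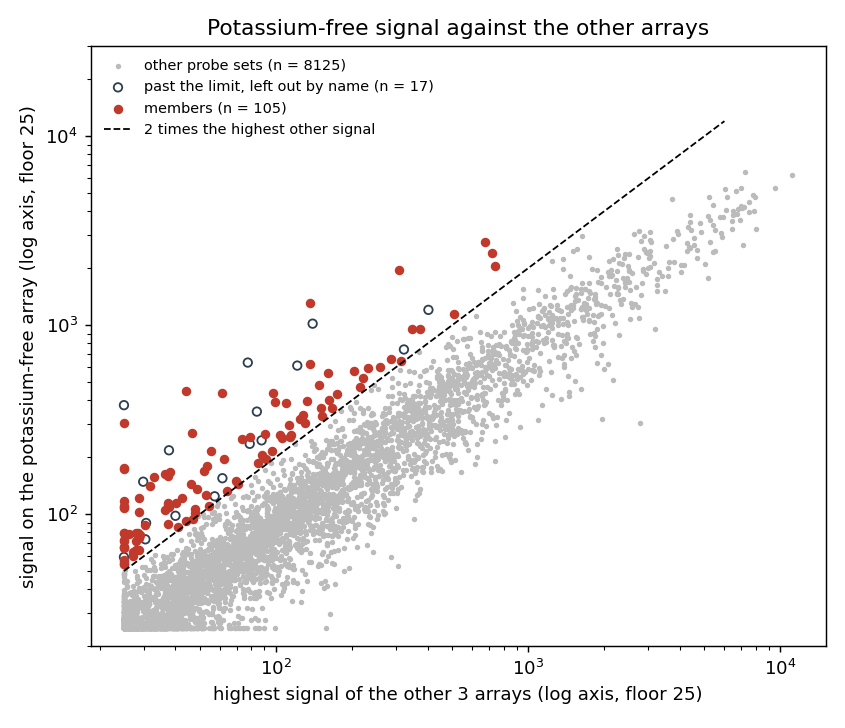
Each point is 1 probe set, with the highest signal of the other 3 arrays on the horizontal axis and the signal on the potassium-free array on the vertical axis, both logarithmic with a floor of 25. The 105 members (red) lie above the dashed line at 2 times, as the rule requires, and reach 2765 on the potassium-free array; the 17 probe sets left out by name are open circles.

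The platform annotation named a single gene for 35 of the 105 members, several genes for 3 and none for 67. The 35 probe sets belong to 32 genes. A single gene was named for 33.3% of the members and for 46.0% of all 8247 probe sets. On the potassium-free array the members ran from 54.5 to 2765 with a median of 166, and their median lay at percentile 82.9 of that array. Their medians were 47.6 on the phosphate-free, 35.6 on the nitrate-free and 29.0 on the full-solution array. The dimmest member still lay at percentile 65.4 of the potassium-free array.

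The rule fixed the direction of every member but not its size. The lowest of the 3 ratios was between 2 and 3 in 66 members, between 3 and 4 in 18 and 4 or more in 21. Just inside the limit, the single-gene members AT4G17830 and AT4G18950 stood at 2.07 and 2.08 times the next highest array. Just outside it, AT4G38080 stood at 1.98 times, AT1G54020 at 1.96, AT2G39420 at 1.95, a second probe set of AT4G24350 at 1.93 and AT2G32210 at 1.93.

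Low signals matter for a large share of the group. Of the 105 members 18 lay at the floor on all 3 other arrays, so all their ratios are lower bounds. The full-solution signal lay at the floor in 47 members, the nitrate-free in 42 and the phosphate-free in 20, and each such ratio is a bound. Another 53 members lay above the floor on all 4 arrays. Over those 53, the median log2 ratio of the potassium-free array was 1.40 to the phosphate-free, 1.73 to the nitrate-free and 1.90 to the full-solution array. Over the 3545 of all probe sets above the floor on all 4 arrays, the same medians were 0.00, -0.05 and -0.03. Over all 105 members, with bounds included, the medians were 1.52, 1.81 and 2.00. The rule used these contrasts, so the medians describe the choice.

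**Figure D2:**
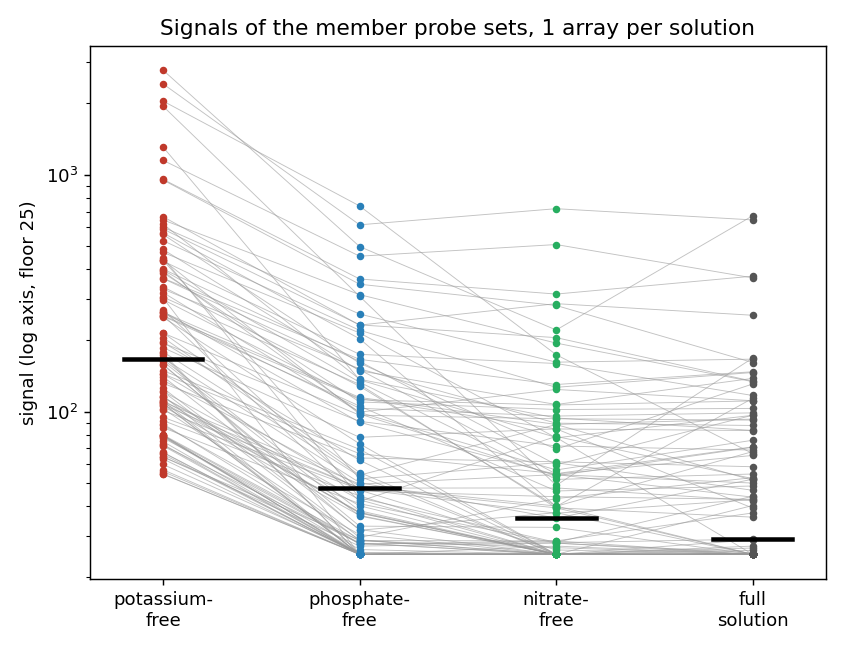
Signals of the 105 members on each array, 1 line per probe set, on a logarithmic axis with a floor of 25; black bars are medians. The median is 166 on the potassium-free array and 47.6, 35.6 and 29.0 on the phosphate-free, nitrate-free and full-solution arrays.

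Among the other 3 solutions, the phosphate-free one most often came next. Of 87 members with 1 highest signal above the floor among the other 3 arrays, that signal was on the phosphate-free array in 64 (73.6%), on the nitrate-free array in 13 and on the full-solution array in 10. Over all probe sets the phosphate-free array was the highest of the 3 in 1473 of 4301 (34.2%). After the floor, the phosphate-free signal was at least 2 times the full-solution signal in 14 members (13.3%), where 1.86% of all probe sets passed. It was 2 times lower in 0 members, where 0.715% passed. The nitrate-free signal was at least 2 times the full-solution signal in 3 members (background 0.424%) and 2 times lower in 3 (background 0.57%). These comparisons share the full-solution array with each other and with the rule, so the counts describe the members and test nothing.

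The label of the tissue was checked against marker genes. The annotation named 7 of 19 leaf genes, and their 10 probe sets summed to 24626 on the potassium-free array, against 37199 on the phosphate-free, 47812 on the nitrate-free and 43735 on the full-solution array. The sum was lowest on the potassium-free array. Each of the 7 genes, as the mean over its probe sets, was also lower there than on the full-solution array. Their log2 ratios ran from -0.93 (PSBY) to -0.62 (RCA), with a median of -0.84. Over all probe sets above the floor on all 4 arrays the median was -0.03. Single leaf genes differed widely in signal, and LHCB4.3 was the dimmest, at 105.5 on the potassium-free array and 134.4, 126.1 and 172.5 on the phosphate-free, nitrate-free and full-solution arrays. Of 14 root genes the annotation named 1, the beta-glucosidase gene BGLU21, at 377.2 on the potassium-free array and 5.3, 0.8 and 1.7 on the phosphate-free, nitrate-free and full-solution arrays. BGLU21 passed the limit and was left out by name. The named flower gene AT5G07230 lay under the floor on all 4 arrays, between 4.3 and 17.4, and none of 9 seed genes was named. The part of tissue composition in the members' signals was not tested, and a bulk signal cannot tell more cells of a type from more RNA per cell.

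The 32 named genes are described in groups of roles put together by hand from the members, whose sizes were set against no list. The first group holds 8 genes of sugar-binding, wall, phenylpropanoid and lipase-like proteins. AT2G43610 belongs to the chitinases, enzymes that cleave fungal wall chitin. Its potassium-free signal was 157.6, against 32.9 on the phosphate-free, 32.5 on the nitrate-free and 22.1 on the full-solution array. It was at least 6.30 times its full-solution level, which lay under the floor. Its close relative AT2G43620 stood at 223.6 on the potassium-free array and 158.4, 77.0 and 195.1 on the phosphate-free, nitrate-free and full-solution arrays, 1.15 times the full solution. AT2G43600 lay under the floor on all 4 arrays. The related chitinase genes therefore differed in their ratios.

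Both berberine bridge enzyme-like genes among the members were measured by a pair of probe sets each. AT4G20860 encodes an oxidase of cellulose-derived sugars. Its signals without potassium were 140.7 and 105.4. On its first probe set the phosphate-free, nitrate-free and full-solution signals were 31.8, 13.4 and 15.1, and on its second 36.5, 13.2 and 17.9. AT1G30700 had 121.7 and 115.1 on the potassium-free array. Its first probe set gave 28.6, 28.5 and 5.9 on the phosphate-free, nitrate-free and full-solution arrays and its second gave 37.4, 17.3 and 18.2. On all 4 of these probe sets the phosphate-free signal was the highest of the other arrays. On the first probe set of AT1G30700 it was nearly level with the nitrate-free one, at 28.6 and 28.5, just above the floor. The bounds against the full solution were at least 5.63 and 4.22 times for AT4G20860, and at least 4.87 and 4.60 times for AT1G30700.

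The rest of this oxidase family was read from a list of 27 genes put together after the members were known. The annotation named 12 of them, and 6 were above the floor on some array. Of the 12, 3 were at least 2 times higher on the potassium-free than on the full-solution array, where 3.65% of all probe sets passed, and none was 2 times lower, where 1.71% passed. Besides both members, this was AT2G34810, at 275.8 on the potassium-free, 219.0 on the phosphate-free, 36.6 on the nitrate-free and 50.5 on the full-solution array. It missed the rule because its phosphate-free signal was nearly as high. For both members the rule had already required 2-fold over the full solution, so the count of 3 is no independent evidence. Genes were counted by the mean over their probe sets, while the share over all counts probe sets. AT4G20840 was at 25.3 on the potassium-free and 42.6 on the full-solution array, a log2 ratio of -0.75. The brightest probe set of AT4G20820 had 209.0 on the potassium-free array. It had 224.3, 83.9 and 188.8 on the phosphate-free, nitrate-free and full-solution arrays, so it was 1.11 times the full solution. The other probe sets of AT4G20820 lay under the floor on all 4 arrays. AT5G44380 had 29.3 on the potassium-free array and at most 5.3 on the others, at least 1.17 times the full solution. A probe set assigned to AT1G30730 and AT1G30720 together, neighbours of AT1G30700 by locus number, had 96.9 on the potassium-free array and 7.8, 52.0 and 33.3 on the others, 2.91 times the full solution and 1.86 times the next highest. It is not counted among the 12 because it names a pair of genes. The other 6 of the 12 lay at the floor on all 4 arrays, which sets their log2 ratio and the list's median to 0.00.

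Members of the ER body group were the jacalin-related lectin genes JAL23 and JAL34 and the GDSL lipase-like gene AT1G54010, also called GLL23. JAL23 stood at 158.5 on the potassium-free array, against 31.6 on the phosphate-free, 37.5 on the nitrate-free and 24.3 on the full-solution array. It was the nitrate-free signal that came next here. JAL34 stood at 125.8 on the potassium-free array and at 29.5, 43.0 and 52.7 on the phosphate-free, nitrate-free and full-solution arrays, 2.39 times the full solution, with the phosphate-free signal the lowest. AT1G54010 had 386.3 on the potassium-free array and 110.0, 102.2 and 103.3 on the other arrays in the same order. Its other 3 signals were nearly level, and the potassium-free one was 3.74 times the full solution.

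The ER body and myrosinase list held 22 genes, of which the annotation named 5. Of these 4 were at least 2 times higher on the potassium-free than on the full-solution array, where 3.65% of all probe sets passed, and none was lower, where 1.71% passed. Of the 4, 3 are the members above and the fourth is BGLU21, which the rule leaves out by name. BGLU21 is also the only root gene named in the tissue check above, so the same probe set counts in both places. NAI1, a transcription factor gene needed for ER body formation, lay under the floor on all 4 arrays, at 22.7 on the potassium-free and 9.1, 4.7 and 12.5 on the other arrays. The median log2 ratio of the 5 genes was 1.90, beside -0.03 for all probe sets above the floor on all 4 arrays. The list was drawn up with earlier results on some of its genes known, and the rule used the same contrast, so the count is no independent evidence. AT1G54020, a further GDSL lipase-like gene, had 49.1 on the potassium-free array and 8.3, 5.9 and 13.2 on the others, and missed the limit narrowly. JAL31, a further jacalin-related lectin gene, lay under the floor throughout, with its highest signal, 18.9, on the potassium-free array.

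**Figure D3:**
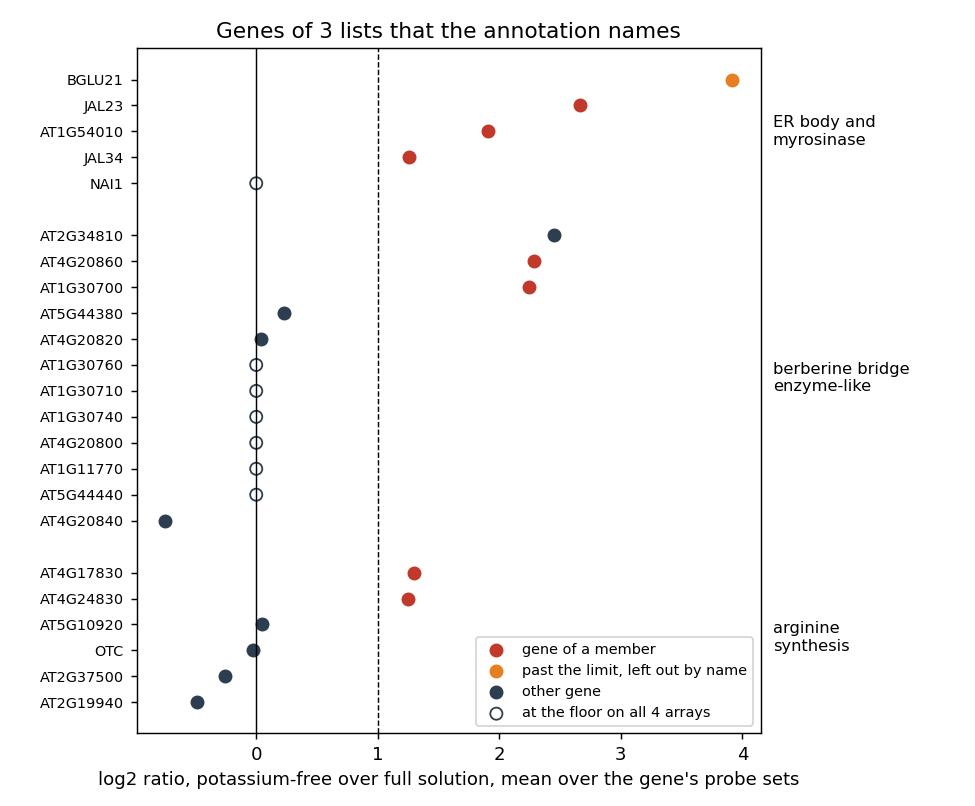
Log2 ratio of the potassium-free to the full-solution array for each gene that the annotation named on 3 lists, as the mean over its probe sets; the dashed line marks 2-fold and open points lay at the floor on all arrays. In the ER body list 4 of 5 genes lie beyond 2-fold, in the berberine bridge enzyme-like list 3 of 12, and in the arginine list 2 of 6. For the members among them the rule had already required this.

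The last genes of this group were dim. CCOAMT, which encodes a caffeoyl-CoA methyltransferase of phenylpropanoid metabolism, had 79.6 on the potassium-free array and 24.2, 23.9 and 23.1 on the phosphate-free, nitrate-free and full-solution arrays. All 3 of those lay just under the floor, so its ratio of at least 3.18 is a bound. AT2G41810, of the DUF642 family of wall-associated proteins, had 72.2 on the potassium-free array and 27.8, 21.4 and 26.6 on the others.

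Hydrolase, inhibitor and storage-related genes held the brightest named members. AT2G38870, a protease inhibitor gene of the potato inhibitor I type, had 2420 on the potassium-free array, against 615.1 on the phosphate-free, 719.5 on the nitrate-free and 645.1 on the full-solution array. It was 3.75 times the full-solution level, and far above the floor everywhere. AT4G17470, a palmitoyl protein thioesterase family gene, had 436.3 on the potassium-free array and 52.1, 60.9 and 46.6 on the others, 9.36 times the full solution. It held the highest rank by the rule among single-gene members, at 7.16 times the next highest array. AT1G03220, an aspartyl protease family gene, had 951.2 on the potassium-free array, 345.3 on the phosphate-free, 280.9 on the nitrate-free and 161.3 on the full-solution array. Here each depleted array was above the full solution, and the potassium-free array was 5.90 times it.

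AT1G03220 lies next to its relative AT1G03230, and the array separates them only in part. A probe set assigned to both genes had 590.5 on the potassium-free array and 232.6, 205.5 and 134.5 on the phosphate-free, nitrate-free and full-solution arrays. The probe set of AT1G03230 alone had 54.5 on the potassium-free array and 32.1, 52.3 and 39.4 on the others, 1.38 times the full solution. The large ratio was thus seen where AT1G03220 was probed.

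AT4G24340 and AT4G24350 are adjacent genes of the phosphorylase superfamily, related to storage proteins of poplar bark. AT4G24350 had 194.9 on the potassium-free array, against 91.1 on the phosphate-free, 71.7 on the nitrate-free and 68.9 on the full-solution array. Its second probe set was brighter, with 716.6 on the potassium-free array and 346.6, 299.8 and 370.7 on the others, and fell just short of the limit at 1.93 times. A probe set assigned to both genes had 956.9 on the potassium-free array and 363.4, 313.8 and 373.5 on the others, 2.56 times the full solution. AT4G24340 alone was probed by a pair that disagreed. One had 176.3 on the potassium-free array and 1.4, 2.9 and 4.8 on the others, so it was at least 7.05 times each of them. The second lay under the floor on all 4 arrays, at 7.4 on the potassium-free and 5.0 on the full-solution array. How much of the first signal belongs to AT4G24340 was not tested.

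**Figure D4:**
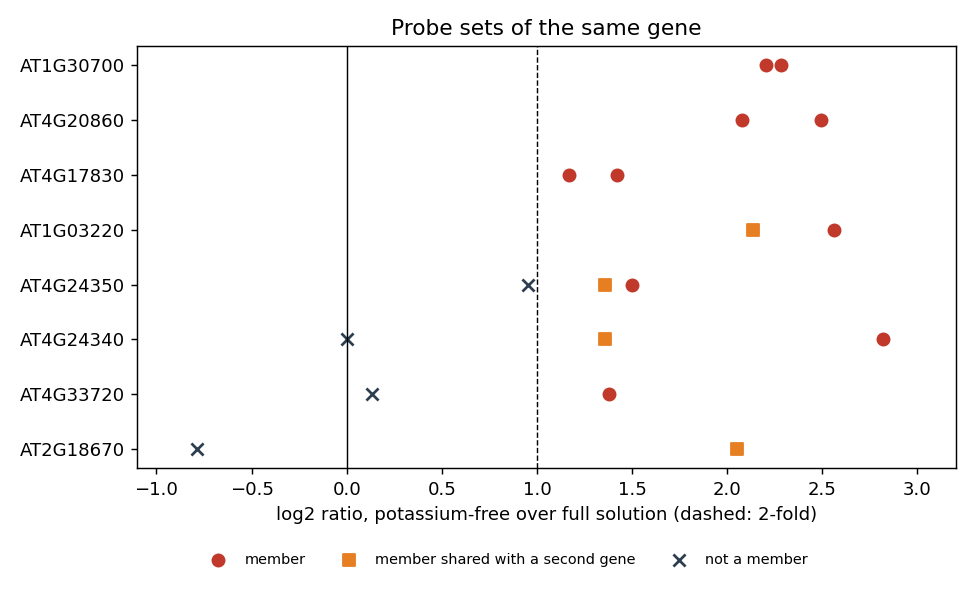
Log2 ratio of the potassium-free to the full-solution array for each probe set of 8 genes with more than 1; circles are members, squares are members assigned to a second gene too, and crosses are probe sets of the same gene that the rule did not take. Both points lie beyond 2-fold in AT1G30700, AT4G20860, AT4G17830 and AT1G03220, and a point lies short of it in AT4G24350, AT4G24340, AT4G33720 and AT2G18670.

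Lipid transfer and small secreted proteins contributed 6 genes, and in 5 of them the full-solution signal lay under the floor. AT4G12545, a gene of the lipid transfer and protease inhibitor family, had 149.1 on the potassium-free array, 69.4 on the phosphate-free, and 1.0 and 4.2 on the nitrate-free and full-solution arrays. With signals under 25 set to 25, only this gene and AT1G03220 among single-gene members had a phosphate-free signal at least 2 times the full-solution one. Where the full-solution signal lay under the floor, as in AT4G39670 (42.5 against 12.6), that ratio is limited by the floor, and the unfloored ratio may be larger. A probe set is shared by AT4G12520 and AT4G12510, relatives of AT4G12545. It had 75.8 on the potassium-free array and 80.0, 36.0 and 30.8 on the others, so there the phosphate-free signal was the highest. AT4G22470, of the same family as AT4G12545, had 78.7 on the potassium-free array and 26.2, 17.0 and 8.0 on the others. AT4G22610 had 78.5 on the potassium-free array and 25.3, 21.6 and 22.5 on the others. For both genes the phosphate-free signal was just above the floor and the others lay under it.

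AT4G39670, a glycolipid transfer protein family gene, had 122.0 on the potassium-free array, 42.5 on the phosphate-free, 15.2 on the nitrate-free and 12.6 on the full-solution array. AT4G02360, of the DUF538 family, had 72.8 on the potassium-free array and at most 15.4 on the others, so it was at least 2.91 times each of them. AT4G33720 belongs to the CAP family, which includes the pathogenesis-related PR-1 proteins. Its member probe set had 74.9 on the potassium-free array, 0.2 on both the phosphate-free and nitrate-free arrays and 28.8 on the full-solution array. Its second probe set had 27.4 on the potassium-free array and 10.3, 3.4 and 23.0 on the others, 1.10 times the floor, so the probe sets of this gene did not give the same ratio.

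The dehydration group held 2 late embryogenesis abundant genes. LTI30 encodes a dehydrin, a protein that accumulates in cold and drought. It had 103.0 on the potassium-free array, against 28.8 on the phosphate-free, 10.8 on the nitrate-free and 17.3 on the full-solution array, at least 4.12 times the full solution. AT2G46140, also called LEA27, had 64.4 on the potassium-free array and 28.7, 10.5 and 13.2 on the others. Of 25 other genes of cold, drought and abscisic acid the annotation named 3, COR15B, COR47 and KIN2. On the potassium-free array none was 2 times higher than on the full solution, where 3.65% of all probe sets passed. None was 2 times lower there, where 1.71% passed. COR15B was at 192.1 on the potassium-free array and 644.6, 742.3 and 284.5 on the phosphate-free, nitrate-free and full-solution arrays, and the median log2 ratio of the 3 genes was -0.04.

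Genes of primary metabolism formed a group of 4, with 2 genes of arginine synthesis. Both of these missed the limit with a pseudocount of 25 in place of the floor, and AT4G24830 also with a floor of 50. AT4G24830 encodes argininosuccinate synthase. It had 88.8 on the potassium-free array and 27.6, 28.5 and 37.4 on the phosphate-free, nitrate-free and full-solution arrays, 2.37 times the full solution. AT4G17830, an acetylornithine deacetylase gene, had 77.6 on the potassium-free array and 27.7, 28.0 and 29.0 on the others for its first probe set. Its second probe set had 131.8 on the potassium-free array and 63.8, 61.5 and 58.6 on the others, and the ratios to the full solution were 2.68 and 2.25. In this gene the other 3 arrays were nearly level.

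The list of arginine synthesis held 12 genes and was drawn up after the members were known. The annotation named 6, all above the floor on some array. Of these, 2 were at least 2 times higher on the potassium-free than on the full-solution array, where 3.65% of all probe sets passed. None was 2 times lower, where 1.71% passed. Those 2 are the members above, for which the rule had already required this ratio. The count is therefore no independent evidence. OTC, which encodes ornithine carbamoyltransferase, stood at 885.5 on the potassium-free array and 888.9, 959.8 and 901.0 on the others. AT5G10920, the argininosuccinate lyase gene of the following step, was at 25.8 on the potassium-free array and 20.7, 32.0 and 21.9 on the others. AT2G19940 and AT2G37500, of earlier steps, had log2 ratios of -0.49 and -0.26. Their signals were low, at 29.3 and 21.2 on the potassium-free and 41.1 and 29.9 on the full-solution array. The 21.2 of AT2G37500 lay under the floor, so the floor limits its ratio. The median log2 ratio over the 6 genes was 0.01, between genes that went both ways.

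SDH1-1, which encodes the flavoprotein subunit of succinate dehydrogenase in mitochondria, had 262.7 on the potassium-free array, against 114.9 on the phosphate-free, 88.4 on the nitrate-free and 93.1 on the full-solution array. AT4G23420, a short-chain dehydrogenase family gene, had 55.9 on the potassium-free array and at most 19.6 on the others. That potassium-free signal was among the lowest of all 105 members, whose minimum was 54.5.

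The other 7 named genes include parts of signalling and membrane proteins. AT1G05340, of a family of small cysteine-rich membrane proteins, had 601.5 on the potassium-free array, against 258.4 on the phosphate-free, 161.9 on the nitrate-free and 166.7 on the full-solution array. AT2G36950, of the heavy metal-associated domain family, had 366.1 on the potassium-free array and 166.4, 130.3 and 147.5 on the others. AT2G34930, a leucine-rich repeat gene related to disease resistance proteins, had 79.5 on the potassium-free array and at most 17.8 on the others. AT4G18950, a protein kinase gene, had 91.8 on the potassium-free array and 44.1, 23.6 and 15.4 on the others. These 4 span the range from well measured on all arrays to bounds on all.

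AT3G16330 had 135.9 on the potassium-free array and 48.6, 40.0 and 24.6 on the phosphate-free, nitrate-free and full-solution arrays. AT2G42760 had 59.9 on the potassium-free array and 25.5, 17.9 and 27.1 on the others. AT2G18690 had 205.7 on the potassium-free array and 54.0, 88.3 and 51.4 on the others, with the nitrate-free signal next. It lies close to AT2G18680 and AT2G18670, which share a member probe set at 400.2 on the potassium-free array and 163.1, 59.8 and 96.7 on the others. The probe set of AT2G18670 alone ran the other way, with 71.7 on the potassium-free array and 132.4, 115.4 and 123.8 on the others.

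**Figure D5:**
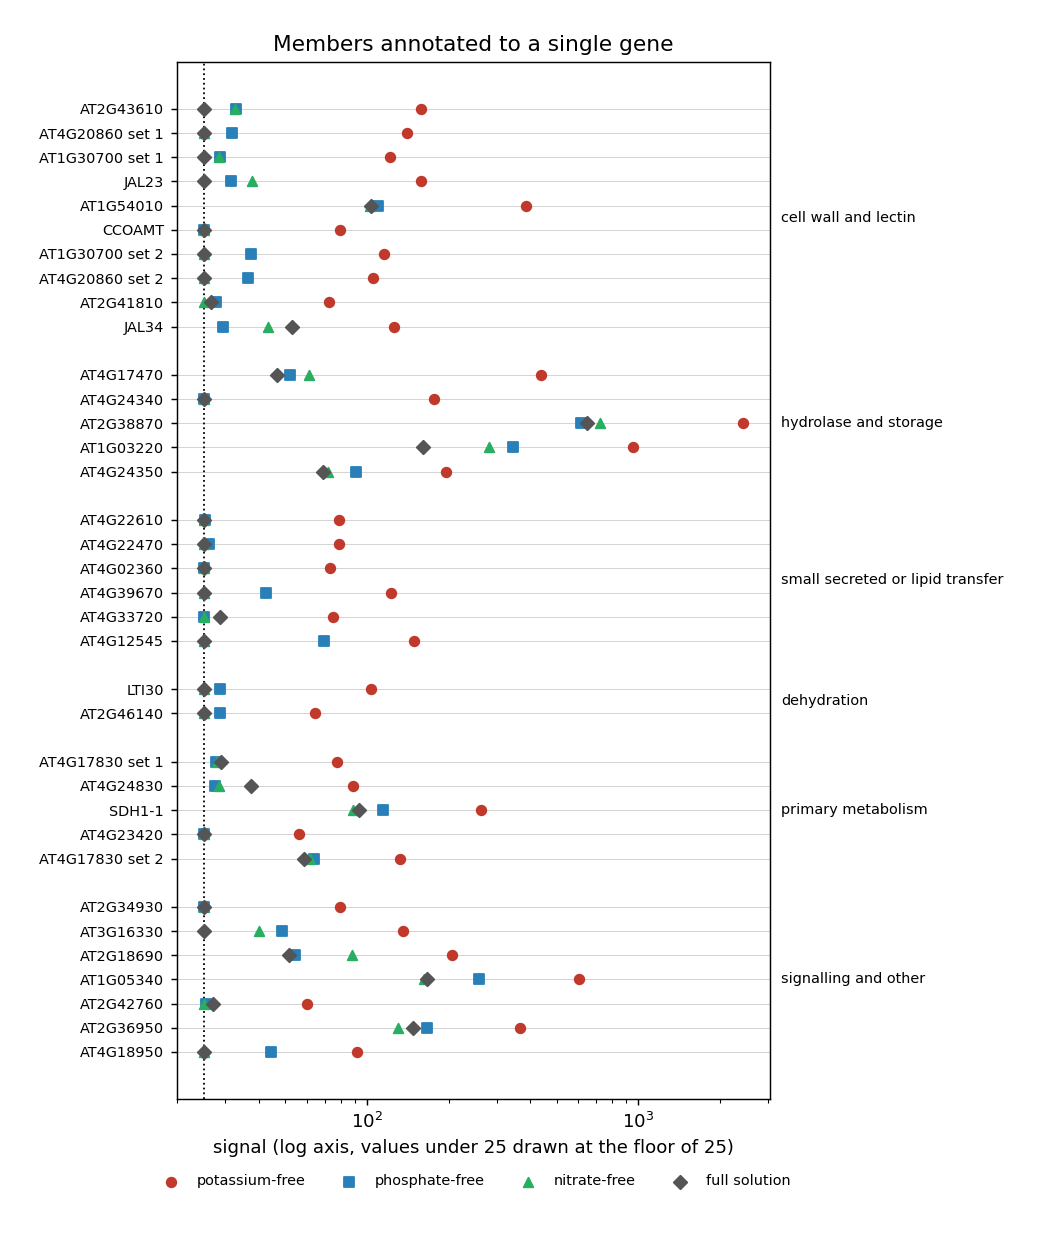
Signals of the 35 members annotated to a single gene, by group of roles, on a logarithmic axis on which values under 25 are drawn at 25; red circles are the potassium-free array, blue squares the phosphate-free, green triangles the nitrate-free and grey diamonds the full-solution array. The red circles run from 55.9 to 2420, and in 5 of the 35 the other 3 symbols all lie at the floor.

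The 67 members with no gene named held most of the brightest signals. On the potassium-free array they ran from 54.5 to 2765 with a median of 215, against 55.9 to 2420 with a median of 122 for the 35 single-gene members. Of 6 members above 1000 on the potassium-free array 5 had no gene named. The highest by the rule was probe set 17533_s_at, with 302.4 on the potassium-free array and 10.3, 1.4 and 2.2 on the phosphate-free, nitrate-free and full-solution arrays. The first was at least 12.1 times each of the others. Probe set 17014_s_at followed, with 447.0 on the potassium-free array and 43.3, 28.1 and 44.0 on the others. What these transcripts encode is not given in the annotation used here.

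Probe sets that may bind more than 1 transcript were common among the members. A letter before the ending of the probe set name, which marks sets designed for several similar transcripts or under relaxed rules, stood in 41 of 105 members (39.0%) and in 2005 of all 8247 (24.3%). With only plain endings the group numbered 64. Related genes may therefore share part of a signal, and this was not tested.

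Genes of the pathways best known for potassium and jasmonate could be read only in part. None of 26 potassium transport genes was named by the annotation. Of 35 jasmonate genes it named 1, THI2.1, which the rule leaves out by name. Its log2 ratio of the potassium-free to the full-solution array averaged 0.35 over its probe sets. These 3 probe sets had mean signals of 30.1 on the potassium-free and 6.8 on the full-solution array. The latter is under the floor, so the floor limits this ratio. Of 19 senescence and remobilisation genes 5 were named and 2 were at least 2 times higher than on the full solution, where 3.65% of all probe sets passed: SAG29 and WRKY6. The rule leaves out both by name, and the lowest ratio of WRKY6, 1.81, was also short of the limit. The list's median log2 ratio was 0.16. No gene of the oxidative stress list (19 genes) or the salicylate and camalexin list (12 genes) was named, and the 1 named ethylene gene of 14, EIN3, had a log2 ratio of -0.09.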

How the data were processed

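The authors deposited linear intensity values, 1 signal per probe set and array, from biotin-labelled RNA on single-colour Affymetrix arrays, per the labels. Neither the expression algorithm nor its scaling target is stated in these sources. After trimming 2% at each end, the mean over non-control probe sets was 98.7 to 99.3 on the arrays, so the arrays were on a like scale and no further scaling was applied. Array background averaged 49.06 to 52.95 and noise 1.38 to 1.59, and 312 cells were masked on the full-solution array and 0 on the others, per the labels.

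Of 8297 probe sets, 50 controls were removed. Signals under 25 were set to 25 and log2 ratios taken in Python 3.11.15 with pandas 2.3.3. Ratios against 25 are bounds. With 1 array per group no test was made; called means past 2-fold. Gene names came from the platform annotation (3794 probe sets with a single gene, 70 with several, 4383 with none), updated through the gene table of TAIR10.1, which matched 3784. Promoter and protein sequences were not used here. Named genes were the 25 highest by their lowest ratio, those with several member probe sets, list or family members and those just inside the limit, which covered all 32; relatives and left-out genes were named after their values were seen. Members, lists and tests were chosen with earlier results of these data known. The rule was run on simulated data in which only bright probe sets were raised and the noise was assumed. That run cannot give the rule's error rate here, as many members lay near the floor and no replicates exist. Floors of 10 and 50, a pseudocount of 25, quantile and median scaling, fold limits of 1.5 and 3, no genes left out, plain endings and, chosen after seeing the data, single-gene probe sets were tried.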

Additional observations from a re-analysis of the deposited data

How the results depend on the processing

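No paired analysis was possible because each group has 1 array and no test was made. Scaling changed the group little: 101 of the 105 members stayed with quantile normalization and 98 with equal medians, and of the named genes AT4G18950 was lost in both and AT2G42760 in the second. Low signals mattered more: the log2 ratio to the full solution moved by over 0.30 in 22 of the 32 genes with a floor of 50, in 19 with a pseudocount of 25 and in 12 with a floor of 10, and in 0 with either scaling. With a floor of 50 the group held 78 probe sets, 22 of a single gene, and with a pseudocount of 25 it held 79, of which 77 were among the 105. CCOAMT, AT2G34930, AT4G02360, AT4G22470 and AT4G22610 were among 12 genes lost with the floor of 50. JAL34, AT4G17830, AT4G24350 and AT4G12545 were among 11 lost with the pseudocount. AT4G24830, AT4G33720, AT2G41810, AT2G46140, AT2G42760, AT4G18950 and AT4G23420 were lost in both. With a floor of 10 the group held 143, with all 105 included because a lower floor cannot drop a member.

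A limit of 1.5 gave 244 probe sets, 79 of a single gene, with median log2 ratios of 0.97 to the phosphate-free, 1.37 to the nitrate-free and 1.37 to the full-solution array. A limit of 3 gave 39, 14 of a single gene, with medians of 2.12 to the phosphate-free and 2.49 to the nitrate-free array. Plain endings gave 64 probe sets and single-gene annotation 35. These counts follow from how the limit or the set of probe sets was changed. A median counted as moved past 0.30, the median range of the log2 ratio between probe sets of 1 gene (69 genes). The ratio of the 32 genes to the full solution kept its sign under the floors, the pseudocount and both scalings. The rule had already required at least 2-fold, so the floors and the pseudocount could not turn a sign. The kept sign is therefore no evidence of stability. The ratio was not recomputed for other genes or settings.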
